A study of Mus musculus with 8 samples.

Results

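The heat shock proteins and the DNAJ proteins form the main chaperone network of the mouse cell. Their genes were taken from the deposited sheet by symbol: symbols that start with Hsp90, with Hspa, Hspb, Hspd, Hspe or Hsph and a digit, or with Dnaja, Dnajb or Dnajc and a digit, without rows marked as pseudogenes. The rule found 73 of 48440 rows, and 69 of these reached 10 in 4 or more libraries, as did 17523 rows in all. Dnajb8, Dnajc5b, Dnajc5g and Hspb3 lay below that level. Hspa14 has a pair of rows, Hspa14_1 and Hspa14_2, and each counts as a member.

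RNA was measured in adenomas of the small intestine from mice on a C57BL/6 background. All mice carried the ApcMin allele over a wild-type Apc allele, which gives rise to intestinal polyps. The ApcMin/+ group had intact 14-3-3σ and comprised 4 mice of 256 to 282 days. The ApcMin/+/14-3-3σ-/- group, called the knockout here, lacked both copies of Sfn, the gene of 14-3-3σ, and comprised 4 mice of 144 to 148 days. Age and genotype therefore cannot be told apart.

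Chaperones bind unfolded stretches of other proteins and help them fold, assemble or reach degradation. HSP70 proteins hold and release clients by burning ATP, DNAJ proteins deliver the clients and switch on that ATPase, HSP110 proteins exchange the nucleotide, and HSP90 proteins mature kinases and steroid receptors. The cytosol, the endoplasmic reticulum and the mitochondria each have their own set. Heat shock factor 1 raises the cytosolic and mitochondrial set under protein stress, and the unfolded protein response raises the set of the endoplasmic reticulum. The intestinal epithelium renews itself fast and secretes much protein, and it carries both systems at high levels.

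Values are normalised read counts as the authors deposited them, whole numbers that summed to between 34182800 and 46707800 per library. Depth before normalisation is unknown, so no counting interval is given. Sfn was at 14607, 6585, 6989 and 15968 in ApcMin/+ replicates 1 to 4 and at 1 or 0 in every knockout library, which differed by -12.81 on the log2 scale (two-sided exact permutation test, p = 0.0286, the smallest that 70 arrangements allow). The markers of epithelium, the labelled tissue's defining cell type, were high throughout, with a mean log2 level over 9 genes of 15.2 to 16.0 in ApcMin/+ and 15.4 to 15.6 in the knockout. Their median difference, knockout minus ApcMin/+, was -0.16, with 7 of the 9 below 0. The other markers also moved with genotype, to different degrees. The median difference, knockout minus ApcMin/+, was 0.84 over 9 fibroblast genes, whose mean log2 level was 10.9 to 11.4 in ApcMin/+ and 11.5 to 12.3 in the knockout. It was 0.24 over 9 endothelial genes, 0.19 over 8 tested leukocyte genes, -0.24 over 10 smooth muscle genes and -0.16 over 8 enteroendocrine and neuronal genes, and none of these marker genes, nor of those of epithelium and fibroblasts, passed the test. Among the leukocyte genes the neutrophil genes S100a8 and S100a9 were higher in every knockout library than in any ApcMin/+ library, by 2.81 and 1.68. The part of cell composition in the results below was not tested, and in bulk tissue fewer cells of a type and less RNA per cell cannot be told apart. One column of the knockout carries no usable mouse number and is written here as the unnumbered knockout library. This library and ApcMin/+ replicates 2 and 3 held Xist, which is transcribed from an inactive X chromosome, at levels over 1000, unlike the other 5. In those 5 libraries the median difference of the epithelial markers was -0.48, with all 9 below 0.

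Promoter letters that heat shock factors and the unfolded protein response are known to read were looked up in the members with a promoter entry. Promoter windows of 250 bases before to 50 bases after the start site came from RefSeq on GRCm38.p6, and 54 of the 69 members had an entry. Hspa8, Hsp90aa1, Hsp90ab1, Hspa9 and Hspa13 were among the 15 without one, and their promoters were not searched. The heat shock element was searched on both strands as GAANNTTCNNGAA, 3 units in alternating orientation. It occurred in 0.603% of all 32851 promoters and, counted by gene, in 4 of 54 members (7.41%), namely Hspe1, Hspd1, Hsph1 and Dnajb6, against 0.662% of all genes. The shorter palindrome GAANNTTC, which the longer motif contains, occurred in 12 of 54 members (22.2%) and 9.04% of all genes. The endoplasmic reticulum stress element, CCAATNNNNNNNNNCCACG, occurred in 3 of 54 members (5.56%), namely Hspa5, Hsp90b1 and Dnajc3, and in 0.137% of all genes. Windows of 90 bases around these motifs are shown for members chosen after their differences were seen. The choice therefore allows no comparison between the motifs. Hspe1 and Hspa1b were among 10 members lower in the knockout at an unadjusted p of 0.05, and Dnajb6, Hspa5, Hsp90b1 and Dnajc3 were not. Capitals mark the motif on either strand, and in Hspe1 they cover 2 overlapping matches.
Hspe1, heat shock element of 3 units, chr1:55088025-55088114, plus strand: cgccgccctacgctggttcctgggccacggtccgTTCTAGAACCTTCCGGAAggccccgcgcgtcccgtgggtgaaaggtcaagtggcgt
Dnajb6, heat shock element of 3 units, chr5:29735808-29735897, plus strand: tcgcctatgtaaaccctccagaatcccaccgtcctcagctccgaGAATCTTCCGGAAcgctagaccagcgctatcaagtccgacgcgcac
Hspa1b, heat shock element of 2 units, chr17:34959294-34959383, minus strand: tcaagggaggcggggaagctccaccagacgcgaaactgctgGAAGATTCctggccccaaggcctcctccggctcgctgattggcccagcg
Hspa5, endoplasmic reticulum stress element, chr2:34771989-34772078, plus strand: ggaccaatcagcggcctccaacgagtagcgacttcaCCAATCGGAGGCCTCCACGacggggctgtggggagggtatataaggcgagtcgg
Hsp90b1, endoplasmic reticulum stress element, chr10:86705498-86705587, minus strand: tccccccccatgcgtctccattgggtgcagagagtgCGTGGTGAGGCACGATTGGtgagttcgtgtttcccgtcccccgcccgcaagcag
Dnajc3, endoplasmic reticulum stress element, chr14:118937791-118937880, plus strand: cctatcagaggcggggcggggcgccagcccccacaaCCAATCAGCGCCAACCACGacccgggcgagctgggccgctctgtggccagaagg

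The Hspe1 window lies between the RefSeq start sites of Hspe1 and Hspd1, which are transcribed away from each other and share the same matches. In GENCODE the genes overlap and the window lies within Hspd1. There they share 112 exon bases on opposite strands, 7.6% of those of Hspe1. Hspa1a has the same 90 letters as Hspa1b at chr17:34972212-34972301 on the minus strand, and the 300-base promoters of these genes are identical at 296 positions (98.7%). Hsp90b1 holds a further match outside the window shown, and the match of Hsph1 lies after its start site. A match is a description of the letters, not evidence of binding. In the 4 members with the longer heat shock motif the log2 differences were -0.57 for Hsph1, -0.39 for Hspe1, -0.14 for Hspd1 and 0.09 for Dnajb6. Members with only the shorter palindrome were Hspa1a (-0.68), Hspa1b (-0.64), Hspb1 (-0.52), Dnaja4 (-0.43), Hspb6 (-0.35), Dnaja1 (-0.09), Dnajc27 (0.01) and Hspb8 (0.12). In the 3 members with the endoplasmic reticulum element they were 0.05 for Hspa5, -0.03 for Hsp90b1 and 0.04 for Dnajc3.

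The adenomas of both genotypes were rich in housekeeping chaperones of all 3 compartments. Divided by the length of the principal transcript, the ApcMin/+ mean was highest for Hsp90ab1, a constitutive cytosolic HSP90, at 47800 ± 5510 per kb (SD, n = 4), and for Hspa8, the constitutive cytosolic HSP70, at 43400 ± 6630 per kb. These means overlap within their spread. Hsp90b1, the HSP90 of the endoplasmic reticulum, followed at 13900 ± 1020 per kb, and Hspa5, its HSP70, at 10500 ± 1290 per kb. The mitochondrial chaperonin Hspd1 reached 8260 ± 1640 per kb. The inducible Hspa1b stood far below its constitutive relative, at 457 per kb, and Hspa1a at 82.3 per kb. The transcripts of Hspa1b and Hspa1a share most of their sequence, and the counter was not given. Their absolute values are therefore uncertain and may lack reads of the shared sequence. The lowest of the 67 members with a length were Dnajc6, a clathrin-uncoating partner, at 5.21 per kb and the testis-linked small heat shock protein Hspb9 at 9.64 per kb.

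**Figure D1:**
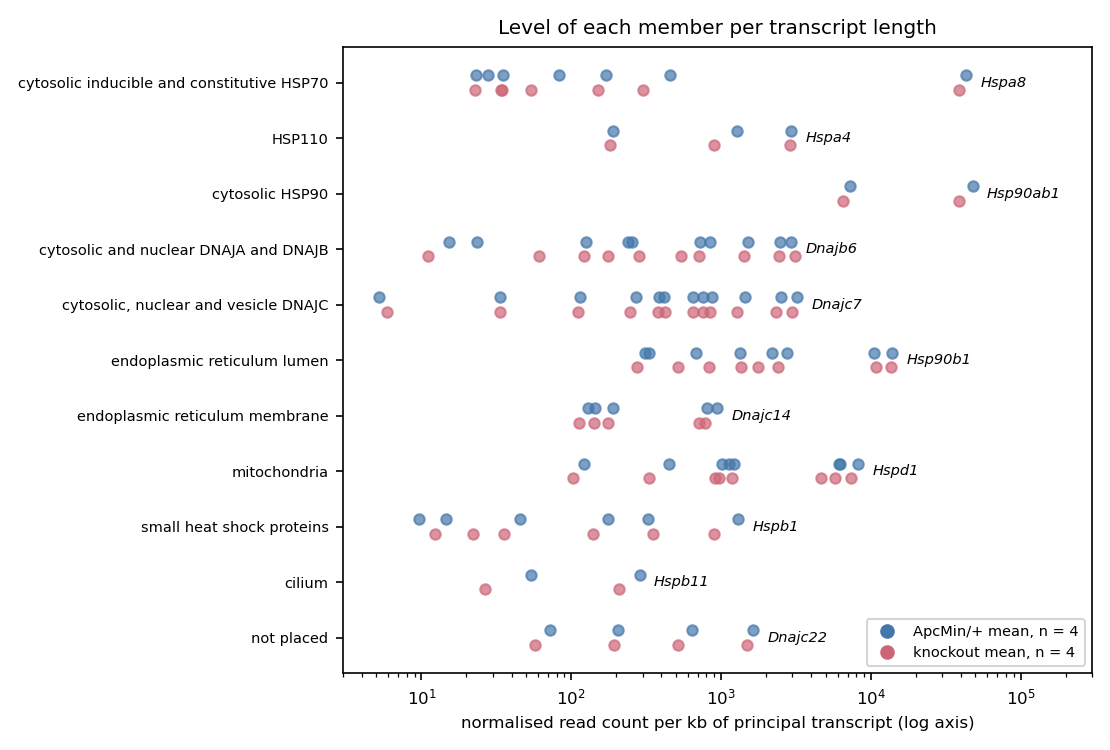
Mean normalised read count per kb of principal transcript (log axis) for each member with a length, by compartment, with ApcMin/+ means in blue and knockout means in red (n = 4 each) and the gene of highest ApcMin/+ mean named. Hsp90ab1 and Hspa8 stand at the right edge, at 47800 and 43400 per kb in ApcMin/+, and their knockout means were both 38600 per kb.

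None of the 69 members passed an adjusted p of 0.05 over all genes tested, against a background of 58 genes (0.331%). The smallest adjusted p was 0.0725, for Hspa13. At an unadjusted p of 0.05, 4 members were higher in the knockout (5.8%) and 10 lower (14.5%), where the shares over all genes were 7.39% and 11.6%. The 4 include Hspb9, which passed the filter on low values through the knockout libraries. With a filter of 50, which leaves it out, 3 of 64 members were higher and 10 lower. In either direction, 20.5% of all genes then had such a p. With median-ratio scaling or quantile normalisation 5 of the 69 members were higher and 7 lower. The shares of all genes in either direction were 18.6% and 19.6%. The knockout libraries all lay above the ApcMin/+ libraries in 3 members, Hspa13, Dnajb3 and Hspa12a (4.35%, against 5.5% of all genes), and all below in 5, Dnajb13, Dnajb2, Dnajc14, Hspb11 and Hsp90ab1 (7.25%, against 10.6%). With either other scaling this became 5 above (7.25%) and 3 below (4.35%), where all genes gave 8.05% and 7.38% with the median-ratio factors and 7.39% and 8.79% with quantiles. In the 6 libraries of the sequencing order that both genotypes share, 0 members were called, 6 lay above (8.7%, against 8.33% of all genes) and 10 below (14.5%, against 15%), but the normalisation had removed the contrast of the orders, so these libraries are no independent check. These shares are near or under the background. Differences were also small: 10 members (14.5%), Hspb9 among them, differed by over 0.5 on the log2 scale, against 18.8% of all genes.

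The difference was below 0 in 54 of 69 members (78.3%), with a median of -0.12, against 59.0% and -0.07 over all genes. After median-ratio scaling it was below 0 in 44 members (63.8%) against 51.4% of all genes, and after quantile normalisation in 46 (66.7%) against 53.6%. By compartment the median lay at -0.75 for the pair of cilium members, -0.29 for the small heat shock proteins, -0.21 for the members not placed, -0.23 for the cytosolic HSP90 pair, -0.18 for the mitochondrial members, -0.18 for DNAJ proteins of the endoplasmic reticulum membrane, -0.16 for the cytosolic HSP70 group, -0.06 for HSP110, -0.06 for cytosolic and nuclear DNAJA and DNAJB, -0.03 for other cytosolic, nuclear and vesicle DNAJC and 0.00 in the lumen of the endoplasmic reticulum. The medians of the DNAJA and DNAJB group and of the cytosolic DNAJC group were above 0 after median-ratio scaling, at 0.0039 and 0.0291. No median of a compartment rests on a called gene, and several move by over 1.5 times when 1 library is left out. Without ApcMin/+ replicate 4 the median was -0.0856 for the mitochondrial members, -0.1114 at the membrane of the endoplasmic reticulum and -0.038 over all genes. For the small heat shock proteins it was -0.1077 without ApcMin/+ replicate 1 and -0.0907 without knockout replicate 2. With the filter of 50, which leaves out Hspb9 and Hspb2, it was -0.3361. For cytosolic HSP70 it was -0.1012 without ApcMin/+ replicate 2 and -0.1043 without the unnumbered knockout library. The medians of the groups nearer to 0 also moved by that factor, and that of the lumen changed sign.

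**Figure D2:**
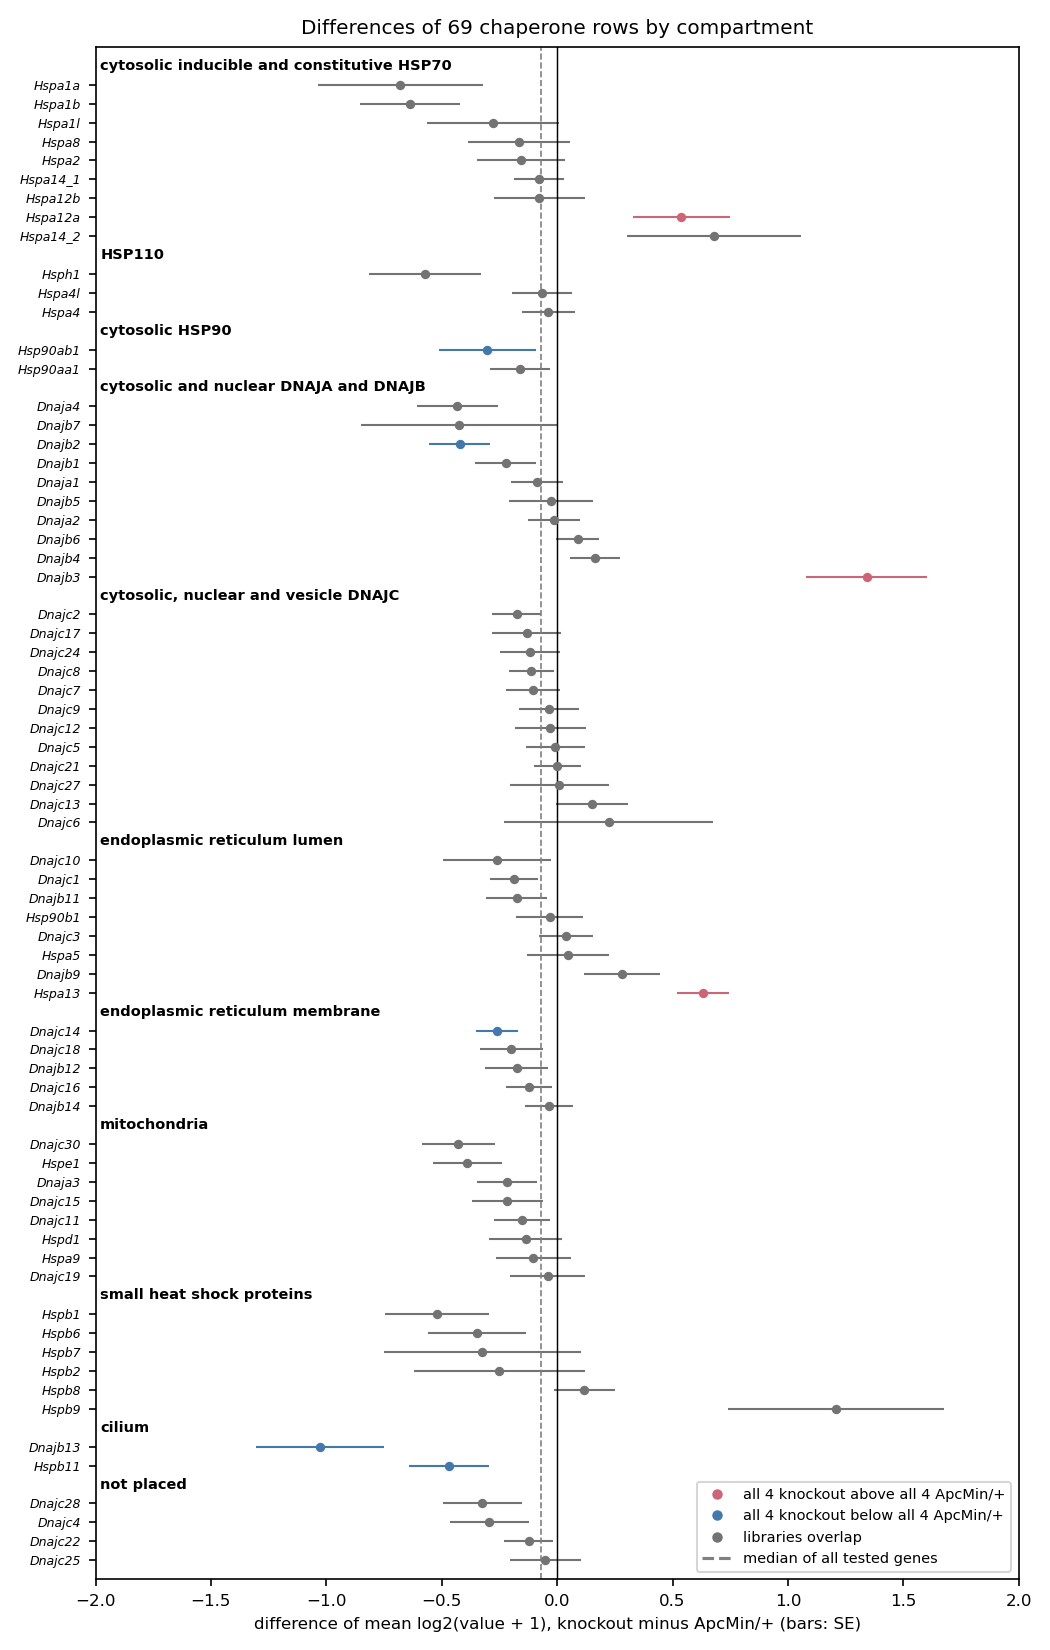
Difference in mean log2(value + 1), knockout minus ApcMin/+, for the 69 members by compartment, with bars for the standard error and a dashed line at the median of all tested genes. Red points mark the 3 members with all 4 knockout libraries above all 4 ApcMin/+ libraries and blue points the 5 with all below; Hspa13 and Dnajb3 stand out to the right, and all 8 mitochondrial members lie left of 0.

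The lumen of the endoplasmic reticulum held the member with the smallest p. Hspa13, an HSP70-type ATPase of microsomes also called Stch (chromosome 16, 75745431 to 75767104, minus strand, GRCm38), was at 1281, 1505, 1316 and 1545 in ApcMin/+ replicates 1 to 4, and at 2200, 2450, 2086 and 2016 in the unnumbered knockout library and knockout replicates 2 to 4. All knockout libraries lay above all ApcMin/+ libraries, with means of 2188 ± 190 and 1412 ± 133 (SD, n = 4 each). The knockout mean was 1.55 times the ApcMin/+ mean, a log2 difference of 0.63 ± 0.11 (SE), and did not pass the test (limma, adjusted p = 0.0725). Across 19 alternative settings the difference was 0.58 to 0.70 and the adjusted p 0.0223 to 0.256, under 0.05 in 6 of them. The settings under 0.05 include both other scalings and the fits without ApcMin/+ replicate 2 (0.0327) or replicate 4 (0.0341).

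The abundant chaperones beside it showed no such separation. Hspa5, the HSP70 of the lumen also called BiP and a main target of the unfolded protein response, was at 41642, 33997, 34676 and 43255 in ApcMin/+ and 37833, 48747, 38511 and 34149 in the knockout, with libraries given in the same order here and below. The groups overlapped over most of their range. Hsp90b1, also called GRP94, was at 41633, 36626, 37133 and 42042 against 38800, 42059, 38243 and 34828, which overlapped too. The log2 differences were 0.05 ± 0.18 and -0.03 ± 0.15 (SE), both without a call (adjusted p = 0.908 and 0.926) and both with a sign that depends on the setting.

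Dnajb9, also called ERdj4, hands misfolded clients to BiP and is a target of the XBP1 arm. It was at 1807, 1475, 1466 and 2003 in ApcMin/+ and at 2104, 2583, 1718 and 1832 in the knockout, a difference of 0.28 ± 0.16 (adjusted p = 0.384). Knockout replicate 2 was highest, and the groups overlapped. Dnajc1, a membrane-anchored J protein that faces the lumen, was at 1801, 1633, 1652 and 1791 against 1555, 1341, 1480 and 1675, a difference of -0.19 ± 0.10 (adjusted p = 0.362). The remaining members of the lumen, Dnajb11, Dnajc3 and the disulfide reductase partner Dnajc10, ranged from -0.26 to 0.04.

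Within ApcMin/+ most lumen genes followed another split of the libraries. Replicates 1 and 4 both lay above replicates 2 and 3 in 7 of the 8 lumen members (87.5%). The same held in 30 of all 69 members (43.5%) and in 36.4% of all genes. Both lay below replicates 2 and 3 in 0 lumen members, 8 of all members (11.6%) and 23.5% of all genes. The normalisation had removed the contrast of replicates 1 and 2 against replicates 3 and 4. The part of that removal in this split was not tested. Dnajc10 showed the widest gap, with 12316 and 10237 in replicates 1 and 4 and 5668 and 7271 in replicates 2 and 3. Replicates 1 and 4 had Xist under 1000, and their epithelial markers were also higher, with mean log2 levels of 15.8 and 16.0 against 15.2 in replicates 2 and 3. The part of either was not tested.

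The members at the membrane of the endoplasmic reticulum were lower in the knockout by small amounts, with differences of -0.26 to -0.04 in 5 genes. Dnajc14, a transmembrane J protein known for its role in receptor export and flavivirus replication, was at 4014, 3852, 3713 and 4251 in ApcMin/+ and at 3306, 3214, 3364 and 3314 in the knockout. The groups did not overlap and the knockout libraries were nearly level. The difference was -0.26 ± 0.09 (SE), 16.6% less in the mean, without a call (adjusted p = 0.186). Its exons share 17.0% of their bases with Ormdl2 on the opposite strand, so reads of the pair could mix if strand was not used in counting. Ormdl2 was at 1879, 1382, 1558 and 1759 against 1170, 1677, 1193 and 1179. Dnajc18 was at 568, 763, 702 and 617 against 519, 632, 589 and 561, a difference of -0.20 ± 0.14 (adjusted p = 0.455).

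Hspa1a, Hspa1b and Hsph1, heat-inducible genes of the cytosol, varied more between animals than most genes at their level. Hspa1b, a classic stress-inducible HSP70 (chromosome 17, 34956436 to 34959238, minus strand), was at 1435, 1092, 1126 and 1475 in ApcMin/+ and at 967, 1097, 716 and 582 in the knockout. The groups met only where knockout replicate 2, at 1097, exceeded ApcMin/+ replicate 2. Its near-copy Hspa1a (34969190 to 34972156) was at 326, 175, 222 and 254 against 215, 217, 131 and 79, with more overlap. The log2 differences were -0.64 ± 0.22 for Hspa1b and -0.68 ± 0.36 for Hspa1a (SE), and neither was called (adjusted p = 0.183 and 0.334). The transcripts share most of their sequence: 67.6% of the 31-base words of Hspa1b also occur in Hspa1a, so the split of reads between the genes is uncertain. Their sum, which does not depend on how counted reads were split, was 1526 ± 255 in ApcMin/+ and 1001 ± 300 in the knockout (SD, n = 4). This is a log2 difference of -0.64. The counter was not given, so the sum may also lack reads of the shared sequence.

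Hsph1, the stress-inducible HSP110 that recharges HSP70, was at 4512, 5100, 4275 and 5615 in ApcMin/+ and at 3511, 4532, 3630 and 1954 in the knockout, a difference of -0.57 ± 0.24 (adjusted p = 0.252). Knockout replicate 4 was the lowest library for Hsph1, Hspa1a and Hspa1b. Without it the differences were -0.33, -0.38 and -0.48. The spread of these genes within genotypes was wide: the SD of Hsph1 exceeded that of 92.4% of genes at a similar level, that of Hspa1b 87.5% and that of Hspa1a 83.2%. For the stress-inducible Dnajb1 that share was 57.9%, and for the stress-responsive Hsp90aa1 it was 6.45%. Knockout replicate 4 was the lowest of the 8 libraries in 9 of 24 cytosolic HSP70, HSP110, HSP90, DNAJA and DNAJB members (37.5%), against 8.79% of all genes. These 24 include Hsph1, Hspa1a and Hspa1b, which drew attention to that library. Over all 69 members it was the lowest in 13 (18.8%).

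**Figure D3:**
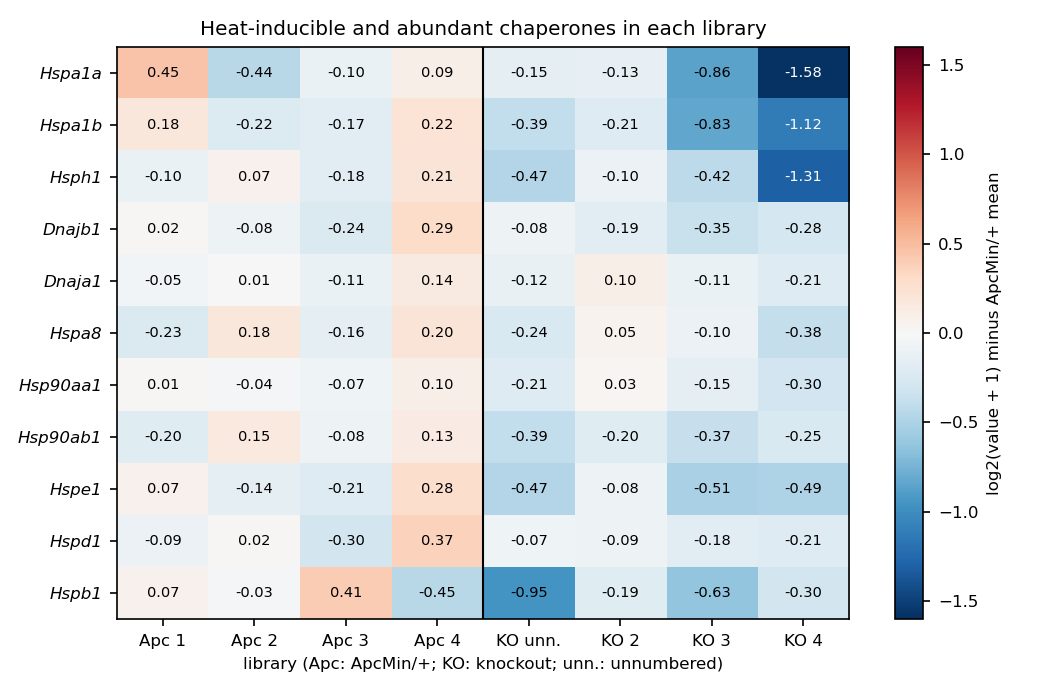
Log2(value + 1) of 11 heat-inducible or abundant chaperones in each of the 8 libraries, as the difference from the ApcMin/+ mean of that gene, with knockout libraries right of the line. Knockout replicate 4 shows the deepest values, -1.58 for Hspa1a, -1.31 for Hsph1 and -1.12 for Hspa1b, while knockout replicate 2 stays between -0.21 and 0.10 throughout.

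The other HSP110 genes, which serve constitutive HSP70, showed differences near 0. Hspa4 was at 12831, 14093, 12262 and 15394 against 13566, 12737, 13426 and 13247, and Hspa4l at 1664, 1918, 1660 and 1972 against 1939, 1845, 1732 and 1409. Their differences of -0.04 ± 0.12 and -0.06 ± 0.13 (adjusted p = 0.887 and 0.818) change sign with the setting.

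The constitutive cytosolic chaperones differed little. Hspa8, the housekeeping HSP70, was at 87940, 116401, 92416 and 118512 in ApcMin/+ and at 87143, 106778, 96215 and 79054 in the knockout, a difference of -0.17 ± 0.22 (adjusted p = 0.711). The groups overlapped. Hsp90ab1 was at 104481, 132980, 112993 and 130975 against 91419, 104373, 92452 and 100782, a difference of -0.30 ± 0.21 (adjusted p = 0.455). No knockout library reached the lowest ApcMin/+ library, but knockout replicate 2 fell short of it only narrowly, and after either other scaling the groups overlapped. Hsp90aa1, the more stress-responsive HSP90, was at 24142, 23347, 22761 and 25570 against 20660, 24363, 21594 and 19392, a difference of -0.16 ± 0.13 (adjusted p = 0.524). Processed pseudogenes and related genes share 43.5% of the 31-base words of Hspa8 and 51.4% of those of Hsp90aa1, which makes their absolute values uncertain.

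A less studied HSP70 relative went the other way. Hspa12a, a distant HSP70 family member, was at 126, 144, 123 and 141 in ApcMin/+ and at 203, 157, 264 and 168 in the knockout. All knockout libraries lay higher, though replicates 2 and 4 only slightly. The difference was 0.54 ± 0.21 (SE), without a call (adjusted p = 0.225). The row Hspa14_2 was at 17, 24, 17 and 22 against 45, 20, 50 and 24, and the much more abundant Hspa14_1 at 1963, 2131, 1882 and 2348 against 2120, 1968, 1815 and 1969. The sheet does not say how these rows of the ribosome-associated HSP70 differ. Of the other HSP70 members, the testis-linked Hspa1l and Hspa2 and the endothelial Hspa12b ranged from -0.28 to -0.08, all with overlap.

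Among the DNAJ proteins that drive cytosolic HSP70, Dnajb3 had the largest fold. This gene (chromosome 1, 88204732 to 88205782, minus strand) was at 29, 20, 23 and 27 in ApcMin/+ and at 66, 67, 50 and 74 in the knockout. The groups stood well apart, at means of 24.8 ± 4.03 and 64.2 ± 10.1 (SD, n = 4), 2.60 times higher in the knockout. The log2 difference was 1.34 ± 0.26 (SE), without a call (adjusted p = 0.0942; 0.0282 to 0.319 over the alternatives, and 0.0453 without ApcMin/+ replicate 2). It lies within introns of the Ugt1a cluster, whose genes run on the opposite strand and share none of its exon bases. Ugt1a7c, the most abundant of them, was at 4519, 2311, 1772 and 7551 against 6020, 3742, 4198 and 5115, with overlap.

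Dnajb2, which shuttles ubiquitinated clients to the proteasome and is best known in neurons, was at 1494, 1196, 1295 and 1384 in ApcMin/+ and at 1019, 1154, 1022 and 826 in the knockout. The groups did not overlap, but ApcMin/+ replicate 2 and knockout replicate 2 lay close, and they overlapped after median-ratio scaling and after quantile normalisation. The difference was -0.42 ± 0.13 (SE; adjusted p = 0.164). Dnajb1, the stress-inducible partner of HSP70 in disaggregation, was at 2533, 2371, 2121 and 3059 against 2363, 2196, 1960 and 2062, a difference of -0.22 ± 0.13 (adjusted p = 0.389). Dnaja1, a farnesylated partner of Hspa8, was at 8205, 8520, 7866 and 9342 against 7767, 9048, 7841 and 7318, a difference of -0.09 ± 0.11 (adjusted p = 0.701). Both overlapped. Dnaja4, whose exons share 44.1% of their bases with Wdr61 on the opposite strand, differed by -0.43 (adjusted p = 0.239), and Dnaja2, Dnajb4, Dnajb5, Dnajb6 and Dnajb7 ranged from -0.42 to 0.16.

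**Figure D4:**
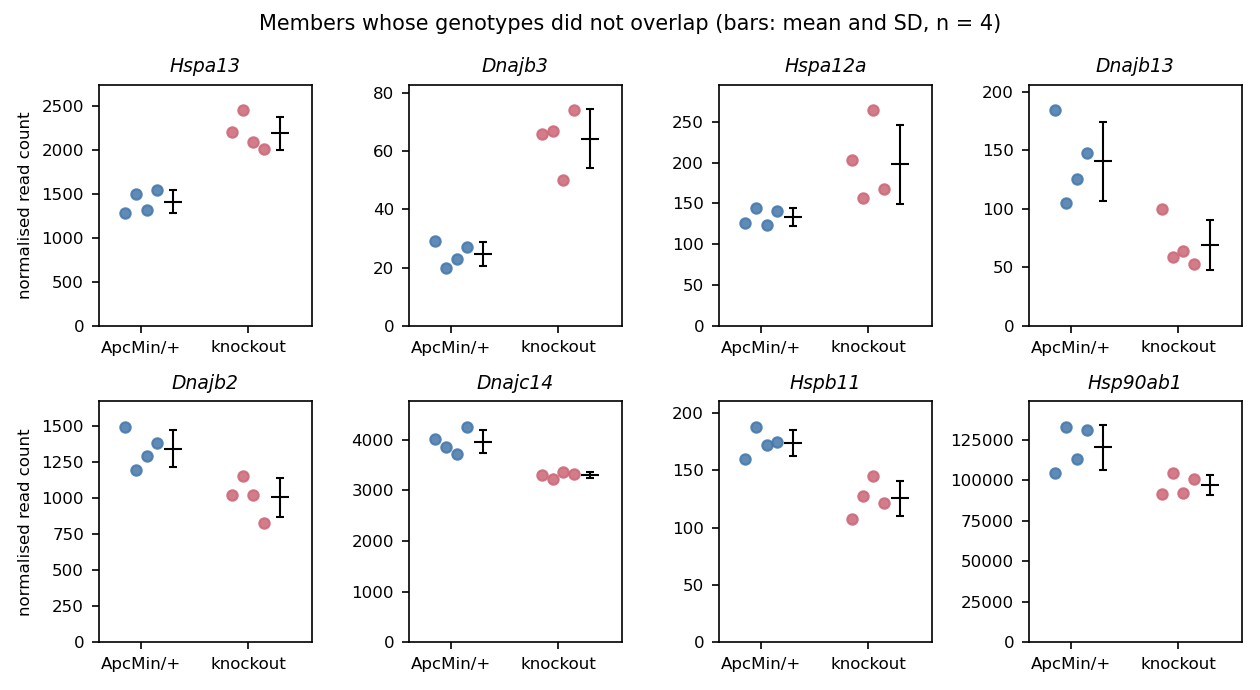
Normalised read counts of the 8 members whose genotypes did not overlap, each point a library (ApcMin/+ blue, knockout red) with mean and SD beside it (n = 4). The gap between groups is wide for Hspa13 and Dnajb3 and narrow for Dnajb2, Hspa12a and Hsp90ab1.

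The DNAJC proteins of cytosol, nucleus and vesicles form a varied group, among them Dnajc5, a synaptic vesicle chaperone, and Dnajc13, an endosomal protein. Their differences were small, with a median size of 0.11, against 0.23 over all genes. The 12 differences ran from -0.18 to 0.22, none had separated groups and none had an unadjusted p under 0.05. Over all genes 5.5% and 10.6% lay higher or lower without overlap, and 7.39% and 11.6% had such a p. Counts of 0 among 12 genes say little beside these shares. Dnajc2, a ribosome-bound partner of HSP70, was at 2865, 3169, 2846 and 3415 in ApcMin/+ and at 2572, 2975, 2539 and 2792 in the knockout, a difference of -0.18 ± 0.11 (adjusted p = 0.397). Dnajc8, a splicing-linked J protein, was at 3245, 3718, 3317 and 3811 against 3308, 3360, 3056 and 3299 (-0.11 ± 0.10, adjusted p = 0.558). Both pairs of groups overlapped. Dnajc7, which bridges HSP70 and HSP90, was at 7394, 7229, 6596 and 8675 against 6658, 6708, 6655 and 7688 (-0.11 ± 0.12, adjusted p = 0.656). Dnajc8 lies 1.05 Mb from Sfn, the nearest member, followed by Hspb7 at 7.82 Mb and Dnajc16 at 8.16 Mb, with differences of -0.32 and -0.12.

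In mitochondria all 8 members were below 0, from -0.43 to -0.04, with 7 below 0 after median-ratio scaling and 6 after quantile normalisation, 7 without ApcMin/+ replicate 1, and 6 without ApcMin/+ replicate 4, the highest library for many members. That library ranked highest in 34 of 69 members (49.3%) and in 31.8% of all genes. Dnajc30, a small J protein that binds ATP synthase, was at 838, 623, 642 and 879 in ApcMin/+ and at 516, 538, 506 and 639 in the knockout, with overlap through knockout replicate 4. Its exons share 26.2% of their bases with Bud23 on the opposite strand. The difference was -0.43 ± 0.16 (adjusted p = 0.213).

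Hspe1 and Hspd1 encode the lid and the barrel of the mitochondrial chaperonin, and Hspa9 encodes the mitochondrial HSP70, mortalin. Hspe1 was at 4930, 4269, 4069 and 5716 in ApcMin/+ and at 3400, 4443, 3292 and 3350 in the knockout. Knockout replicate 2 stood above the other knockout libraries and inside the ApcMin/+ range. Hspd1 was at 18582, 19964, 16088 and 25464 against 18874, 18587, 17374 and 17079, and Hspa9 at 17769, 18736, 15214 and 24374 against 17821, 16920, 16450 and 18720. Both overlapped, with ApcMin/+ replicate 4 far above the rest. The differences were -0.39 ± 0.15 for Hspe1, -0.14 ± 0.16 for Hspd1 and -0.10 ± 0.16 for Hspa9 (SE; adjusted p = 0.224, 0.67 and 0.761). Pseudogenes and other genes share 24.8% of the 31-base words of Hspe1 and 50.1% of those of Hspd1. The difference between Hspe1 and Hspd1, which share a promoter region, was not tested.

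The small heat shock proteins hold unfolded proteins without ATP. Hspb1, the most abundant per length here, was at 1200, 1125, 1523 and 839 in ApcMin/+ and at 591, 1002, 740 and 932 in the knockout, a difference of -0.52 ± 0.22 (adjusted p = 0.259). The groups overlapped through ApcMin/+ replicate 4, and 52.3% of its 31-base words recur in a pseudogene. Hspb9 was at 5, 7, 3 and 13 against 15, 11, 18 and 20, a difference of 1.21 ± 0.47 (adjusted p = 0.225). It passed the filter on low values through the knockout libraries, and at this level the fold is poorly set. Hspb2, Hspb6, Hspb7 and Hspb8, which muscle expresses, ranged from -0.35 to 0.12, all with overlap. The smooth muscle markers had mean log2 levels of 10.7 to 11.3 in ApcMin/+ and 10.3 to 11.2 in the knockout, and their part was not tested.

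The members with roles in cilia both lay lower in the knockout. Dnajb13, an axonemal protein of motile cilia (chromosome 7, 100501716 to 100514960, minus strand), was at 184, 105, 125 and 148 in ApcMin/+ and at 100, 59, 64 and 53 in the knockout. The groups did not overlap, at means of 140 ± 33.9 and 69.0 ± 21.2 (SD, n = 4). The log2 difference was -1.03 ± 0.28, without a call (adjusted p = 0.137). Ucp2, a mitochondrial carrier gene on the opposite strand, shares 11.2% of the exon bases of Dnajb13 and was far more abundant, at 41737, 33483, 33876 and 43166 against 28814, 25778, 26417 and 31378. Its libraries were also all lower in the knockout (-0.43 ± 0.16, adjusted p = 0.208), and how far its reads enter the values of Dnajb13 was not tested. Hspb11, also called IFT25, a part of the intraflagellar transport complex, was at 160, 188, 172 and 175 against 108, 128, 145 and 122. Its groups did not overlap, and the difference was -0.47 ± 0.17 (adjusted p = 0.212).

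Dnajc22, Dnajc25, Dnajc28 and Dnajc4 were placed in none of these groups and ranged from -0.32 to -0.05. Dnajc28 was at 241, 269, 280 and 225 against 180, 243, 213 and 178 (-0.32 ± 0.17, adjusted p = 0.338). Dnajc4 was at 630, 437, 475 and 617 against 468, 429, 368 and 483 (-0.29 ± 0.17, adjusted p = 0.38). Dnajc22, the most abundant, was at 2289, 2742, 2309 and 2846 against 2308, 2319, 2397 and 2289 (-0.12 ± 0.11, adjusted p = 0.555). All 3 overlapped.

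Genes that regulate or assist these chaperones were read from 5 lists, and no gene of any list was called. In the heat shock response list, 7 of 10 genes were below 0, with a median of -0.21, or -0.1066 without ApcMin/+ replicate 4. Hsf1, the main heat shock factor, was at 1179, 1239, 1124 and 1342 in ApcMin/+ and at 1028, 1005, 936 and 835 in the knockout, groups that did not overlap (-0.36 ± 0.11, adjusted p = 0.164). Cryab, a small heat shock protein of muscle and lens, was at 193, 199, 271 and 122 against 95, 95, 100 and 129, with overlap (-0.86 ± 0.27, adjusted p = 0.161).

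Of 20 cochaperones of cytosolic HSP70 and HSP90, 16 were below 0, with a median of -0.19. The activators of the HSP90 ATPase were the 2 genes of smallest p. Ahsa1 was at 5229, 5565, 4809 and 6607 against 4105, 4677, 3975 and 4065, and Ahsa2 at 2681, 2366, 2419 and 2761 against 1860, 2272, 1895 and 2044. Neither pair of groups overlapped (-0.39 ± 0.12 and -0.34 ± 0.11, both adjusted p = 0.164). Without overlap, 6 cochaperones lay lower and 1 higher, where 10.6% and 5.5% of all genes did. After median-ratio scaling 14 of the 20 were below 0.

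The TRiC chaperonin folds actin and tubulin, and prefoldin feeds it. Of 14 subunits 13 were below 0, with a median of -0.17, and 11 after either other scaling. Vbp1, a prefoldin subunit, was the exception, at 1322, 1459, 1442 and 1319 in ApcMin/+ and at 1884, 2086, 2114 and 1958 in the knockout, well above it (0.54 ± 0.09, adjusted p = 0.0716). Pfdn5, another prefoldin subunit, was at 4454, 3699, 3984 and 4344 against 2722, 3392, 2594 and 2937, without overlap (-0.50 ± 0.12, adjusted p = 0.117). Subunits of 1 complex thus stood on opposite sides, and neither passed the test.

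With all libraries the unfolded protein response list of the endoplasmic reticulum was the flattest, with a median of -0.03 over 30 genes. Of these, 19 were below 0 and none had separated groups. After either other scaling 13 were below 0, and without 1 library 13 to 22. The median was -0.1052 without ApcMin/+ replicate 3 and 0.0225 without replicate 4. In the libraries with Xist under 1000 this list was not the flattest. There 27 of the 30 genes were below 0, with a median of -0.2415, against -0.1251 over all genes. The other lists had medians of -0.373 to -0.1877 in those libraries. Pdia6, a disulfide isomerase, was at 17826, 16031, 15907 and 19234 against 14481, 16499, 11907 and 13115 (-0.31 ± 0.14, adjusted p = 0.283). Ddit3, the stress factor CHOP, was at 555, 307, 390 and 437 against 369, 335, 264 and 250 (-0.46 ± 0.22, adjusted p = 0.298). Both overlapped.

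Among 14 other mitochondrial chaperones and proteases 13 were below 0, with a median of -0.22, and 13 also after either other scaling. Without ApcMin/+ replicate 4 it was 12, with a median of -0.1043. Hscb, the J protein of iron-sulfur cluster assembly, was at 433, 383, 394 and 447 against 239, 340, 281 and 301, without overlap (-0.52 ± 0.15, adjusted p = 0.15). Yme1l1, a protease of the inner membrane, was the exception above 0, at 4391, 4164, 3897 and 4744 against 5769, 5116, 6104 and 5356, also without overlap (0.38 ± 0.11, adjusted p = 0.142).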

How the data were processed

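Adenomas gave 1 strand-specific Illumina library of total RNA per mouse (labels' protocols). For all 8 libraries the authors deposited 1 sheet of whole numbers after RUVs, which subtracts factors estimated among replicates, per the file headers, so the values were treated as a score and not as counts. Per the submitters' processing notes the build is mm10; the aligner, the counter and the annotation were not given in the sources used here. A knockout column with the number of an ApcMin/+ mouse was assigned to its genotype only. ApcMin/+ replicates 3 and 4 carry a different sequencing order in their column names from the remaining 6 libraries. RUVs had removed 1 direction of deviation, the contrast of these orders within ApcMin/+, so sequencing order cannot be assessed, and that direction was a covariate of the fit, with 5 residual degrees of freedom.

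Rows that reached 10 in 4 or more libraries were fitted together in limma 3.58.1 (R 4.3.3; lmFit, eBayes with trend) on log2(value + 1), which understates changes of low genes, with Benjamini-Hochberg adjustment over 17523 genes and a threshold of 0.05. The fit was also run on simulated data with planted differences larger than that of any member. That run does not cover differences of the size reported here. Left out were 27 rows with names turned into dates. Positions and transcripts came from GENCODE M21 on GRCm38, and transcripts were cut into 31-base words to find shared sequence.

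Members, compartments and lists were chosen with earlier results of these data known. Named were 15 well-known chaperones, per compartment the 2 members of smallest p and the most abundant, members whose libraries did not overlap and that differed by over 0.5, and the 2 of smallest p per list; further members were named after their values were seen. Alternatives were other pseudocounts and filters, scalings, covariates, library subsets, a robust fit and leaving out each library.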

Additional observations from a re-analysis of the deposited data

Results flagged for a closer look

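Outlying libraries were looked for in the 34 named members, in 68 groups of 4 libraries, where chance alone flags about 1 in 20 groups. There were 2 flags. In the knockout, Dnajc7 was at 7688 in replicate 4 and between 6655 and 6708 in the other 3 libraries. Hspe1 was at 4443 in knockout replicate 2 and between 3292 and 3400 in the other 3. Knockout replicate 4 was thus high for Dnajc7 while it was the lowest library for Hsph1, Hspa1a and Hspa1b.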

How the results depend on the processing

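The number of members called, 0 as reported, was 1 after median-ratio scaling (Hspa13; 0.32% of all genes called), 1 after quantile normalisation (Hspa13; 0.342%), 2 with genotype alone in the model (Hspa13 and Dnajb3, 2.9%; 2.43% of all genes) and 5 in the 5 libraries with Xist under 1000 (Hspa13, Dnajb13, Dnajc10, Dnajc30 and Hspa1b, 7.25%; 12.5% of all genes). Leaving out 1 library gave 0 to 2, the 2 without ApcMin/+ replicate 2 (1.97% of all genes) and 1 without ApcMin/+ replicate 4 (0.822%). Members entirely higher and entirely lower in the knockout, 3 and 5 as reported, were 5 and 3 after either other scaling, 6 and 10 in the shared sequencing order, 5 and 22 with Xist under 1000 (7.25% and 31.9%, against 16.2% and 32.7% of all genes), and 3 to 6 and 5 to 12 without 1 library. The extremes were 6 without ApcMin/+ replicate 4 (8.7%, against 7.69%) and 12 without knockout replicate 2 (17.4%, against 14.8%). With Xist under 1000 the median was -0.0293 for cytosolic HSP70 and -0.91 for the cilium members. For the lumen of the endoplasmic reticulum it was then -0.1242, with 6 of 8 members below 0, against -0.1251 over all genes. For the endoplasmic reticulum membrane it was -0.1143 and -0.1079 after the 2 other scalings and -0.187 to -0.1114 without 1 library, highest without ApcMin/+ replicate 4. For DNAJA and DNAJB it was -0.1243 to -0.0399 without 1 library, lowest without knockout replicate 2. Among the members described in every library, signs turned for Hsp90b1 to 0.0287 and 0.0697, and Hspa4 to 0.0236 and 0.0495, under median-ratio scaling and quantile normalisation, and for Hspa9 to 0.0015 under the latter. With Xist under 1000 they turned for Dnajc18 to 0.0031 from -0.20 and Hspa5 to -0.0846, and among other members Hspa1l turned to 0.14 from -0.28, Hspa2 to 0.193 from -0.16 and Dnajb5 to 0.164 from -0.03. Without 1 library the ranges were -0.0766 to 0.0141 for Hsp90b1, -0.0874 to 0.0220 for Hspa4, -0.1226 to 0.0308 for Hspa4l, -0.0536 to 0.1175 for Hspa5 and -0.2031 to 0.0236 for Hspa9. The cause was not tested. No paired analysis was possible because the labels number no mice across genotypes. Depth before normalisation is unknown, which limits the weakly expressed members Dnajb3, Hspb2, Hspb9 and Dnajc6 most.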
